A study of Homo sapiens with 18 samples.

Results

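The genes described here are 55 genes of the cell cycle and of mitosis, taken from a table of 50119 genes by their symbols. They were divided by phase. The G1/S class held 18 genes for G1 progression, origin licensing and the replication fork, and the G2/M class held 37 genes for entry into mitosis, the spindle, the kinetochore and cytokinesis. All 55 genes were found, and all 55 passed the filter on low values in each of the 15 comparisons made.

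RNA sequencing was performed on 18 libraries, 3 in each of 6 groups, to compare ways of growing 1 osteosarcoma line with a tumour formed from it. All groups came from cells labelled Soas-2 (Saos-2, a line from a human osteosarcoma) and labelled WT, with no drug or other agent given. D-2 was grown as 2D cells for 14 days and D-3 as 3D cells in Matrigel for 14 days. DP-3 was printed in a gelatin and alginate bioink and grown for 14 days, and DP-3 day 1 was the same printed culture after 1 day. FIT was the fresh tumour that the cells formed in Matrigel under the skin of female BALB/c nude mice, 4 weeks old at implantation, and IT was pieces of such tumours kept on Matrigel for 14 days. Nude mice lack a thymus and so most T cells, and their own stroma enters the tumour, so FIT and IT could hold mouse cells. Each tumour was divided between IT and FIT, but the sample labels do not say which libraries came from 1 tumour. Nothing in the labels says that the 3 libraries of a group came from separate cultures or animals, so p-values measure the spread between these libraries, which may be technical.

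Progress through the cell cycle is driven by cyclin-dependent kinases (CDKs) bound to cyclins. In G1, ORC, CDC6 and CDT1 load the MCM helicase at origins and E2F factors turn on genes for DNA replication, and a later wave under MYBL2 and FOXM1 turns on the genes of mitosis, whose products are removed by the anaphase-promoting complex. In tumours the same genes are read as a measure of how many cells are cycling. In bulk libraries, fewer cycling cells and less RNA per cell cannot be told apart.

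The classes differed in the letters around their start sites, which the choice of members did not use. RefSeq promoters (GRCh38.p14, 250 bases before to 50 bases after a start) were matched for 45 of the 55 members, and none was given for FOXM1, BIRC5, CCNE2, TPX2, MCM5, TTK, AURKA, UBE2C, CCND1 and MCM4. The CHR element TTTGAA, known from genes of the late cell cycle, was searched on both strands and was present for 23 of 31 G2/M genes and 0 of 14 G1/S genes, against 18.2% of all 27305 genes. An E2F site was taken as the letters TTCCCGC on either strand, the related form TTGGCGC, or the third form searched, which was TTCGCGC. It was present for 12 of 14 G1/S genes and 7 of 31 G2/M genes, against 13.1% of all genes. The second and the third form can overlap on opposite strands, as in MCM6, and CCAATTGG in HMMR is CCAAT on both strands. CCAAT was common to both classes (10 of 14 and 24 of 31, against 39.7% of all genes), and CHR with CCAAT was found for 0 of 14 and 19 of 31, against 7.26%. Of all 35116 promoters taken singly, 15.2% held CHR, 11% an E2F site and 34.6% CCAAT. A match is a run of letters and no more.

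The promoters of 8 members are shown as examples of the letters that differ between the classes. Each is the 100 bases before the start, 5′ to 3′ on the strand of the gene. Capitals mark CHR, CCAAT and E2F letters on either strand. The G2/M genes CCNB2 (chr15:59105046-59105145, plus strand), CDC20 (chr1:43358881-43358980, plus), PLK1 (chr16:23678789-23678888, plus) and HMMR (chr5:163460532-163460631, plus) each hold CHR. The G1/S genes MCM6 (chr2:135876444-135876543, minus), GINS2 (chr16:85688955-85689054, minus), CDT1 (chr16:88803689-88803788, plus) and E2F1 (chr20:33686386-33686485, minus) each hold an E2F site.
CCNB2: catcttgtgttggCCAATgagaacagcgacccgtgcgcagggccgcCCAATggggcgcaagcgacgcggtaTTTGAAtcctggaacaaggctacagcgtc
CDC20: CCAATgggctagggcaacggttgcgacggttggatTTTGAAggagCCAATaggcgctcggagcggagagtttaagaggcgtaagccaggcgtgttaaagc
PLK1: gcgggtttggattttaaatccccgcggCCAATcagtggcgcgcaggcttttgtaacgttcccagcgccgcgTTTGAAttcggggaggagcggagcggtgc
HMMR: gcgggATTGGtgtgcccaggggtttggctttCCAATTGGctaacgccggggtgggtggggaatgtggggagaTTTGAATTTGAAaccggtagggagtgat
MCM6: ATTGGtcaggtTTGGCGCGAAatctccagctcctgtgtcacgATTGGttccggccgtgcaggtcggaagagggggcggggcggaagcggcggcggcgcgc
GINS2: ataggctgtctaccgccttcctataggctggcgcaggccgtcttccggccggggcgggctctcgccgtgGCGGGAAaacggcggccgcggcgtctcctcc
CDT1: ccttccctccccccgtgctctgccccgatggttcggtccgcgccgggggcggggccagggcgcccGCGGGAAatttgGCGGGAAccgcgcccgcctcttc
E2F1: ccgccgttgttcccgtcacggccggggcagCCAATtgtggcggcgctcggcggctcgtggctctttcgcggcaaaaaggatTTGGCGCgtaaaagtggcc

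Total estimated counts lay between 50327345 and 79082786 in 17 libraries, and FIT replicate 3 had 23721666. Some libraries stood apart in these genes. D-3 replicate 1 was the lowest D-3 library for 18 of 18 G1/S and 35 of 37 G2/M genes, D-3 replicate 2 was the highest for all 18 G1/S genes, and IT replicate 3 was the lowest IT library for 17 of 18 and 35 of 37. FIT replicate 1 was the lowest FIT library for 36 of 37 G2/M genes. Counts of calls are given below with and without single libraries. Of 11 osteoblast lineage markers, 5 to 7 had a group mean of at least 0.1 FPKM, and their sum was 118 to 314 FPKM, most of it SPARC, with group means of 126 to 181. On average COL1A1 ran from 1.89 in DP-3 day 1 to 20.3 in FIT, and COL1A2 from 1.89 in D-3 to 11.5 in D-2. RUNX2, the master factor of the lineage, was at 0.61 to 2.41 FPKM in all 18 libraries. IBSP was at 0 in 16 of 18 libraries and SP7 at 0 in 12 of 18. Saos-2 is known for high alkaline phosphatase, whereas ALPL, which codes for it, reached at most 0.148 FPKM. RB1, of which Saos-2 is known to make a truncated protein, was at 5.82 to 10.6 FPKM, and a value per gene does not show truncation. The ALPL level goes against what is known of the line, whose identity was not tested (ALPL and RB1 are named after their values were seen). Of 9 skeletal muscle markers, 6 had a mean of at least 0.1 FPKM in FIT, where their sum was 0.667 to 5.35 FPKM, against at most 0.589 in any other library. Of 8 endothelial markers, 3 to 6 reached a mean of 0.1 FPKM by group, 5 in FIT and in IT. Their sum was 33.4 to 45.5 FPKM in FIT and 36.9 to 51 in IT, within the 25.4 to 48.6 of the cultures but for the highest IT library, and most of it was TIE1, with group means of 23.3 to 43.6. CDH5 was at 0.656 FPKM in FIT and 0.844 in IT and at most 0.105 on average elsewhere, and PECAM1 and TEK were also highest there. Other endothelial markers went the other way. KDR was lowest in FIT and IT (0.00175 and 0.00288 on average), and VWF and EGFL7 were lowest in FIT (0.00772 and 1.09). Of 9 macrophage markers, 4 to 6 reached that mean, with a sum of 24.9 to 61.6 FPKM in FIT and 47.5 to 120 elsewhere, most of it CD68 (39.5 to 73.7 by group). The leukocyte gene PTPRC was at most 0.0476 on average, and AIF1 and TYROBP were at 0 in all FIT libraries. The part of host cells in the results below was not tested.

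The class level of a library was taken as the median, over the genes of a class, of log2(FPKM + 0.1) relative to the mean of each gene over the 18 libraries. D-2 had the highest level of both classes, 0.47 ± 0.07 (SD, n = 3) for G1/S and 0.67 ± 0.03 for G2/M. DP-3 came next with 0.34 ± 0.08 and 0.35 ± 0.04. FIT stood at 0.03 ± 0.07 and −0.16 ± 0.28. In DP-3 day 1 the classes parted, with G1/S at 0.09 ± 0.02, near FIT, and G2/M at −0.29 ± 0.01, lower than in D-2 and DP-3. The place of a group depends on the FPKM scale used for these levels. Log2 fold changes of members in DP-3 day 1 were higher on it than on scaled counts. The median shift was 0.12 against FIT and 0.31 against D-2. D-3 had −0.49 ± 0.65 and −0.21 ± 0.36, and IT had −0.47 ± 0.65 and −0.39 ± 0.47. By library, the G1/S level was −1.13, 0.16 and −0.52 in D-3 and −0.10, −0.09 and −1.21 in IT, and the G2/M level was −0.62, −0.09 and 0.08 in D-3, −0.22, −0.03 and −0.91 in IT and −0.46, −0.11 and 0.09 in FIT. D-3 replicate 1 and IT replicate 3 were the lowest of their groups in both classes. D-3, IT, FIT and DP-3 day 1 did not differ from each other in the G2/M level beyond their spread, whereas the libraries of D-2 and of DP-3 did not overlap with each other or with those of any other group.

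**Figure D1:**
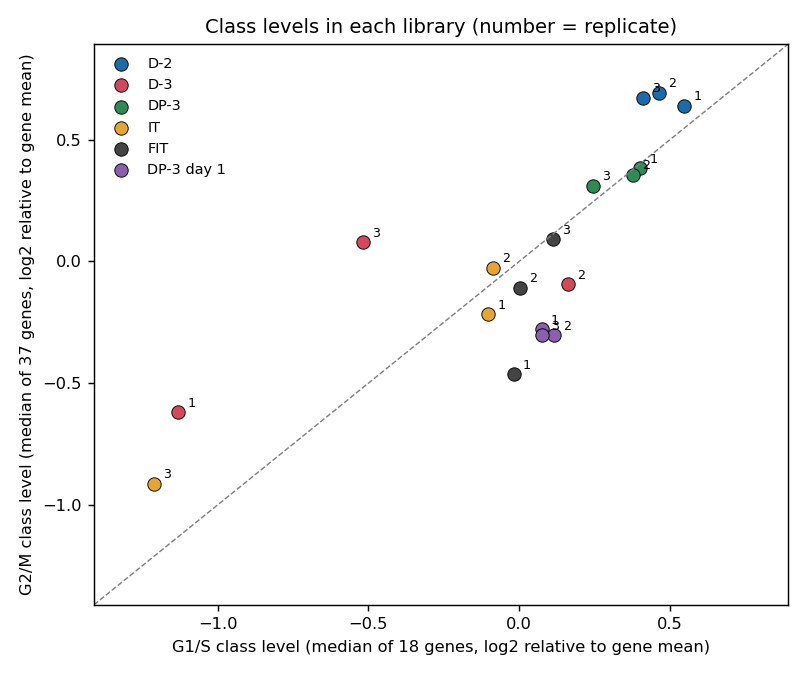
Level of the G1/S class (horizontal axis) against the level of the G2/M class (vertical axis) in each of the 18 libraries, in log2 units relative to the gene means; colours are groups, numbers are replicates, and the dashed line marks equal levels. The D-2 and DP-3 libraries lie at the upper right, D-3 replicate 1 and IT replicate 3 at the lower left, and the 3 DP-3 day 1 libraries lie together below the line.

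Gene by gene, the mean FPKM was highest in D-2 for 49 of 55 members, 14 of 18 G1/S and 35 of 37 G2/M. It was lowest in IT for 28, in D-3 for 14, in DP-3 day 1 for 9 and in FIT for 4. All 9 members that were lowest in DP-3 day 1 were G2/M genes. The ratio of the highest to the lowest group mean had a median of 1.86 for G1/S and 2.14 for G2/M and reached 2.91 and 3.31. Libraries of D-2 differed little among themselves, with a median ratio of the highest to the lowest library of 1.13 for G1/S and 1.09 for G2/M. That ratio was 2.26 and 1.72 in D-3, 2.25 and 1.86 in IT, 1.14 and 1.47 in FIT, 1.15 and 1.14 in DP-3, and 1.06 and 1.11 in DP-3 day 1.

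**Figure D2:**
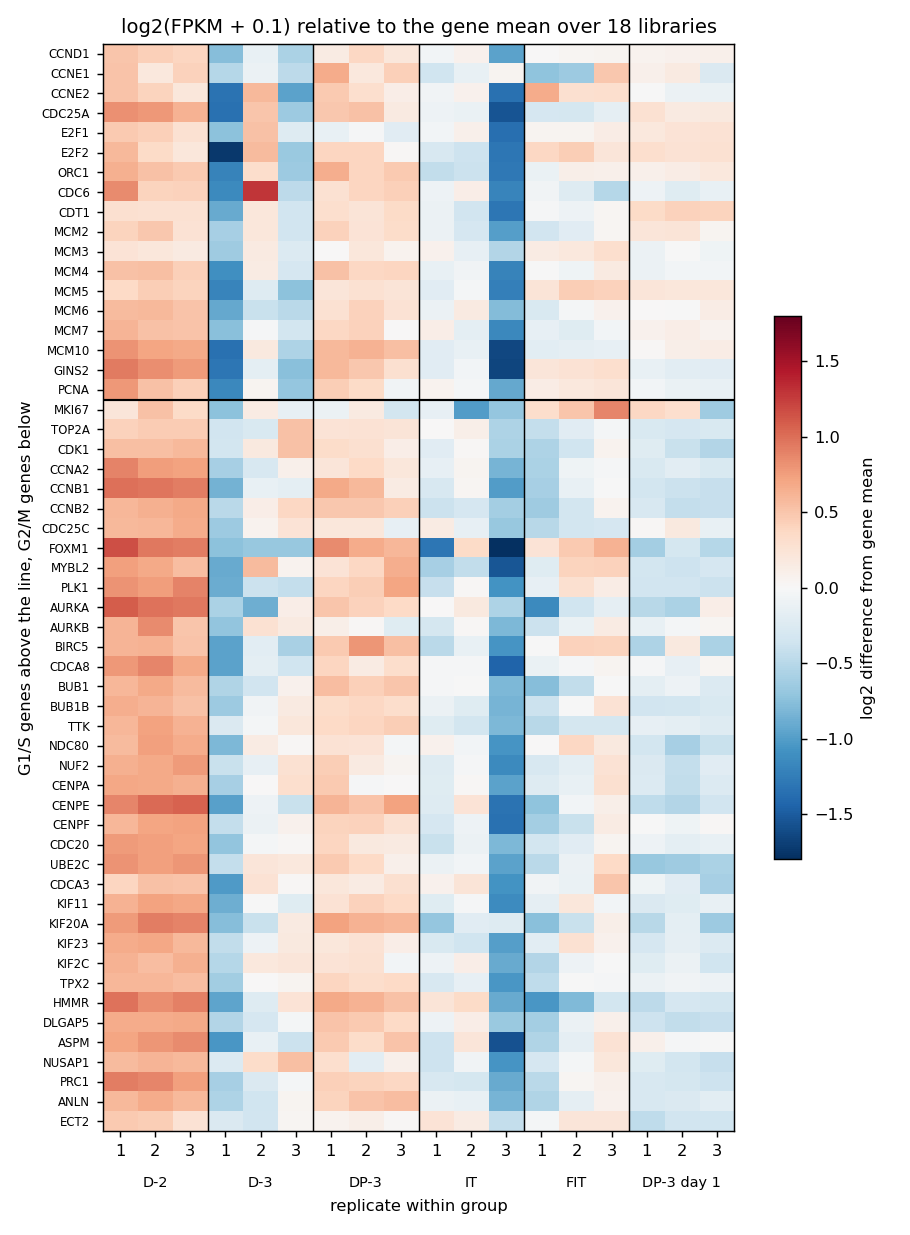
Level of each of the 55 genes in each of the 18 libraries, as log2(FPKM + 0.1) relative to the gene mean (colour scale in log2 units, red higher and blue lower), with G1/S genes above the horizontal line and G2/M genes below it. Red fills the D-2 columns and most DP-3 columns, and the darkest blue lies in D-3 replicate 1 and IT replicate 3.

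Each pair of groups was compared by edgeR's quasi-likelihood test over all genes that reached 0.1 FPKM in 3 of the 6 libraries, and a gene was called when its Benjamini-Hochberg adjusted p was below 0.05 and its fold change at least 2. An exact permutation test of 3 against 3 libraries cannot give a p below 0.1, so single values were not tested that way. All adjusted p-values below come from this edgeR test. The comparisons with FIT share the same 3 FIT libraries, and those with D-2 the same 3 D-2 libraries.

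Against FIT, D-2 had 17 members upregulated and 0 downregulated, 2 of G1/S and 15 of G2/M, where 3.83% of all genes tested were upregulated and 10.8% downregulated. The 17 became 10 without FIT replicate 1, where 9.72% of all genes were called in either direction. The calls of 9 held whichever library was left out, CDC25A, MCM10, CCNB1, CDC25C, AURKA, TTK, CENPE, KIF20A and HMMR. The median log2 fold change was 0.65 for G1/S and 0.96 for G2/M, beside −0.09 over all genes, and 54 members lay above 0 on scaled counts and 52 on the FPKM scale. FPKM did not overlap between D-2 and FIT for 48 members, all higher in D-2, where 18.9% of all genes were so placed. At any fold change 47 members passed the adjusted p, against 16% of all genes. DP-3 had 3 members upregulated, AURKA, KIF20A and HMMR, against 1.66% of all genes, median log2 fold changes of 0.48 and 0.54, and 13 members past the adjusted p at any fold change, against 4.21%. The 3 became 7 without FIT replicate 3 and 0 without DP-3 replicate 1 or FIT replicate 2. Without DP-3 replicate 2, DP-3 replicate 3 or FIT replicate 1 the count was 1. Over all genes, 7.52% were called in either direction without FIT replicate 3 and 0.464% to 1.32% in the other fits.

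D-3 had 2 members downregulated against FIT, MCM5 and FOXM1, where 2.17% of all genes were downregulated. The 2 became 7 without D-3 replicate 2 and 1 without D-3 replicate 1, D-3 replicate 3 or any FIT replicate. Over all genes, 6.38% were called in either direction without D-3 replicate 2 and 1.18% to 7.12% in the other fits. DP-3 day 1 had only FOXM1 downregulated, against 2.15% of all genes. The call was lost without DP-3 day 1 replicate 1 or FIT replicate 3. Of all genes, 1.86% and 8.07% were called in these fits in either direction. At any fold change 8 members passed, all lower in DP-3 day 1, against 4.63%. For IT against FIT, edgeR called 0 members and 0% of all genes in either direction, 7 members had an unadjusted p below 0.05, as 12.7% of all genes did, and DESeq2 called 1 member lower, against 3.12% of all genes in either direction. The median log2 fold change of IT against FIT was −0.40 for G1/S and −0.26 for G2/M, beside 0.01 over all genes. In IT, 12 members lay below all FIT libraries, as 9.49% of all genes did. For these genes IT and FIT were not shown to be alike, since the 3 IT libraries spread widely.

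The largest counts of called members were those of D-3, IT and DP-3 day 1 against D-2. D-3 had 33 members downregulated against D-2, 11 of G1/S and 22 of G2/M, where 3.95% of all genes were downregulated. Without D-3 replicate 1 the count was 19, against 11.6% of all genes called in either direction, and without D-3 replicate 2 it was 44, against 19%. Of the 33 calls, 17 held whichever library was left out, MCM5, MCM6 and GINS2 of G1/S and 14 of G2/M. IT had 38 downregulated against D-2, 7 and 31 by class, against 2.81% of all genes. That count rested on single libraries: it was 6 without D-2 replicate 1 or D-2 replicate 2, 13 without D-2 replicate 3, 22 without IT replicate 1 and 17 without IT replicate 3. Over all genes, 2.68% to 11.6% were called in these fits in either direction, and 2498 of 19721 genes with every library in. The calls of 6 members held in each of them, CCNB2, CDC20, KIF20A, KIF23, PRC1 and TTK, and every other call in IT against D-2 printed below was lost without at least 1 library. FPKM of all 55 members was nevertheless lower in every IT library than in every D-2 library, where 16.7% of all genes were so placed. DP-3 day 1 had 36 downregulated against D-2, 2 of G1/S and 34 of G2/M, against 4.13% of all genes. Leaving out any 1 library gave 32 to 36, with 12.5% to 17.4% of all genes called in either direction. The calls lost without at least 1 library were those of CDC6, TOP2A, AURKB, BIRC5, CENPF and CDCA3. The median log2 fold changes by class (G1/S, then G2/M) were −1.11 and −1.07 for D-3, −0.98 and −1.24 for IT and −0.75 and −1.22 for DP-3 day 1, beside 0.11, 0.10 and 0.10 over all genes.

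DP-3 was the culture nearest to D-2. Between them edgeR, DESeq2 and limma each called 0 members. In edgeR 0.318% of all genes were downregulated and 0.722% upregulated, and DESeq2 and limma called 3.67% and 1.07% in either direction. By edgeR 41 members had an unadjusted p below 0.05, as 22.7% of all genes did. On scaled counts 54 of 55 log2 fold changes were below 0 (52 on the FPKM scale), with a median of −0.18 for G1/S and −0.37 for G2/M, and 8 members passed the adjusted p at any fold change, all lower in DP-3, where 0.992% of all genes did so. The largest of these 8 was AURKB, at −0.72 ± 0.12 (SE; adjusted p = 0.0386). FPKM of 43 members was lower in every DP-3 library than in every D-2 library, 35 of them G2/M, against 13.4% of all genes.

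From day 1 to day 14 of the printed culture, 12 members were upregulated, all of G2/M, where 1.81% of all genes were upregulated. Leaving out any 1 library gave 10 to 14, with 3.85% to 7.82% of all genes called in either direction. At any fold change 49 members passed the adjusted p, all higher at day 14, against 12.2% of all genes, and the median log2 fold change was 0.50 for G1/S and 0.86 for G2/M, beside −0.06 over all genes. DP-3 also had 14 members upregulated against D-3, 5 of G1/S and 9 of G2/M, against 1.98% of all genes. That count was 6, 9 and 7 without DP-3 replicates 1, 2 and 3, 4 without D-3 replicate 1 and 23 without D-3 replicate 2. Over all genes, 4.78%, 6.54%, 5.72%, 2.36% and 11.3% were called in these fits in either direction. At any fold change 26 passed, against 6.1% of all genes. All 55 log2 fold changes were above 0 on scaled counts, and 54 on the FPKM scale. IT had 3 members downregulated against DP-3, CCNB2, KIF20A and PRC1, against 0.411% of all genes. The count was 0 without any 1 DP-3 replicate, where at most 0.00511% of all genes were called in either direction. It was also 0 without IT replicate 1, where 0.116% were. DESeq2 called 13, against 8.97% of all genes in either direction.

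Between D-3, IT and DP-3 day 1 the test called 0 members. For IT against D-3, 0.00922% of all genes were downregulated and 0.0369% upregulated, 0 members had an unadjusted p below 0.05, against 8.9% of all genes, and 27 members lay above 0 and 28 below (16 and 39 on the FPKM scale). For DP-3 day 1 against D-3 the shares were 2% and 0.972%, with 7 members at an unadjusted p below 0.05, against 23.7% of all genes. With D-3 replicate 2 left out 5 members were upregulated, where 5.99% of all genes were called in either direction. For DP-3 day 1 against IT they were 0.616% and 0.538%, with 4 such members, against 18.2% of all genes. DESeq2 also called 0 members in these 3 comparisons, against 2.41%, 6.33% and 4.64% of all genes in either direction. On scaled counts 17 of 18 G1/S genes lay above 0 in DP-3 day 1 against D-3 and also against IT, whereas 24 and 22 of 37 G2/M genes lay below 0, and on the FPKM scale 5 and 12 of the 55 members changed sign.

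**Figure D3:**
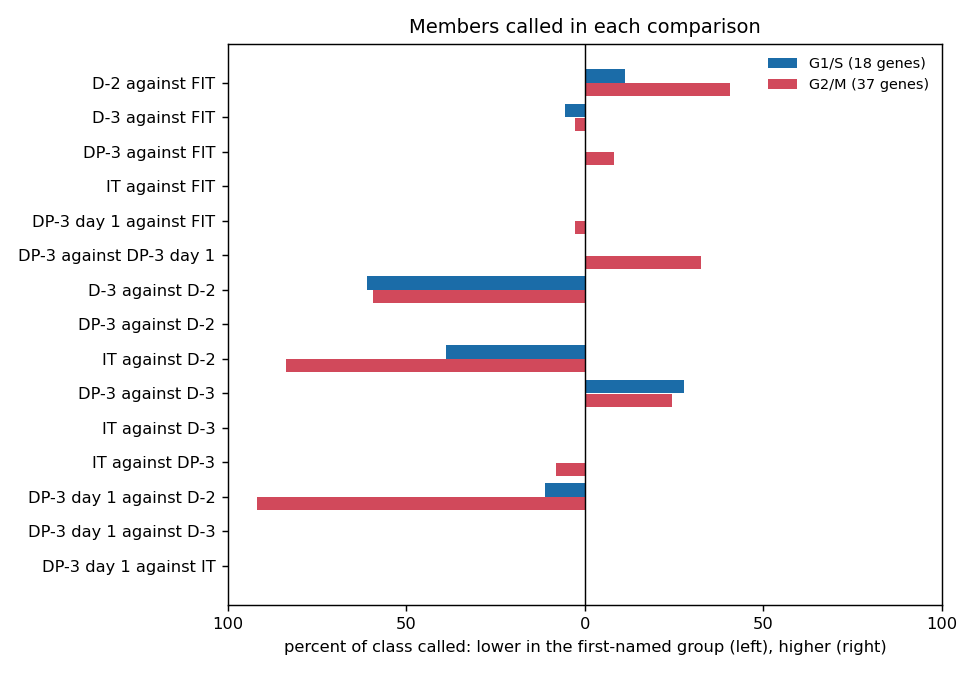
Percent of the 18 G1/S genes (blue) and of the 37 G2/M genes (red) called in each of the 15 comparisons, lower in the first-named group to the left of 0 and higher to the right. The longest bars are the G2/M genes of DP-3 day 1 and IT against D-2, and no comparison has bars on both sides.

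Among the G1 and S cyclins, CCND1, the D-type cyclin that starts G1 progression with CDK4 and CDK6, was at 121, 115 and 112 FPKM in D-2, 50.4, 78.1 and 57.8 in D-3, then 95.1, 111 and 98.7 in DP-3, 82.7, 89.9 and 43.9 in IT, 86.0, 88.0 and 88.7 in FIT and 89.7, 89.8 and 91.0 in DP-3 day 1. All D-3 libraries lay below all FIT libraries and all D-2 libraries above them. CCND1 was downregulated in D-3 against D-2 (log2 fold change −1.15 ± 0.17 SE, adjusted p = 0.00377), a call lost without D-3 replicate 1 (−0.98). The partners of CDK2 in late G1, CCNE1 and CCNE2, had FPKM of 1.57 to 4.29 and 1.54 to 6.57. CCNE1 was downregulated in D-3 against D-2 (−1.01 ± 0.20), a call held in only 2 of the 6 fits without 1 library, and CCNE2 in no comparison. CCNE2 spread 1.57, 6.15 and 2.06 over the D-3 libraries, so that D-3 overlapped every other group. CDC25A, the phosphatase that activates CDK2, was 1 of the 2 G1/S genes upregulated in D-2 against FIT (1.17 ± 0.11, adjusted p = 0.00169), with 11.4 to 13.2 FPKM in D-2 and 5.93 to 6.61 in FIT.

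Of the E2F factors, E2F1 was at 27.2, 26.3 and 23.7 FPKM in D-2, 11.7, 28.2 and 16.5 in D-3, then 17.8, 19.2 and 16.9 in DP-3, 18.8, 20.7 and 7.56 in IT, 20.2, 20.2 and 21.4 in FIT and 22.3, 23.3 and 23.4 in DP-3 day 1. DP-3 was below FIT and DP-3 day 1 above it by FPKM. E2F1 was called in no comparison, and at any fold change it was lower in DP-3 than in D-2 (−0.54 ± 0.09, adjusted p = 0.0365). E2F2 was downregulated only in IT against D-2 (−1.19 ± 0.30, adjusted p = 0.0329) among the 15 comparisons.

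The licensing factor CDC6, which with ORC loads the helicase, was at 15.9, 11.6 and 11.6 FPKM in D-2, 3.88, 21.4 and 6.23 in D-3, then 10.5, 11.4 and 11.8 in DP-3, 8.18, 9.49 and 3.76 in IT, 8.35, 7.39 and 6.06 in FIT and 8.13, 7.47 and 7.93 in DP-3 day 1. D-3 held both nearly the lowest and the highest of the 18 values, in replicates 1 and 2. CDC6 was downregulated in DP-3 day 1 against D-2 (−1.04 ± 0.13, adjusted p = 0.000975), between −1.12 and −0.87 with 1 library left out, and D-3 against D-2 gave −0.56 ± 0.57. CDT1, the loader that is destroyed once S phase begins, was at 28.7 to 29.1 FPKM in D-2, 27.9 to 30.1 in DP-3, 30.2 to 31.7 in DP-3 day 1 and 22.4 to 24.2 in FIT. It was highest in DP-3 day 1 by FPKM, yet its log2 fold change against D-2 on scaled counts was −0.20 ± 0.04, and it was the 1 member whose sign turned between the scales in that comparison. ORC1, a subunit of the origin recognition complex, was downregulated in D-3 (−1.18 ± 0.36) and in IT (−1.39 ± 0.25, adjusted p = 0.0143) against D-2, calls held in 1 and in 4 of the 6 fits without 1 library.

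The 6 subunits of the MCM2-7 helicase were among the more abundant G1/S genes per length, with MCM7 at 52.0 to 55.3 FPKM and MCM3 at 46.9 to 49.8 in D-2. In D-3 against D-2, 4 of 6 were downregulated, MCM4, MCM5, MCM6 and MCM7, of which MCM5 and MCM6 held whichever library was left out, and MCM2 and MCM3 gave −0.85 ± 0.21 and −0.66 ± 0.19. MCM6 was at 24.8, 24.96 and 23.7 FPKM in D-2, 8.75, 12.6 and 11.9 in D-3, then 20.1, 22.1 and 19.9 in DP-3, 15.5, 18.7 and 9.64 in IT, 13.7, 16.2 and 17.49 in FIT and 16.8, 16.5 and 18.2 in DP-3 day 1. Every D-3 library lay below every FIT library, and D-2 and DP-3 lay above. MCM6 was downregulated in D-3 against D-2 (−1.40 ± 0.15, adjusted p = 0.00193) and upregulated in DP-3 against D-3 (1.12 ± 0.17, adjusted p = 0.0103), where the call was lost without D-3 replicate 1 (0.94). MCM5 was the 1 G1/S gene called in D-3 against FIT (−1.09 ± 0.24, adjusted p = 0.0337), with 9.52, 18.6 and 13.0 FPKM in D-3 and 25.5 to 29.5 in FIT, and the call held in 1 of the 6 fits without 1 library. None of the 6 was called in DP-3 day 1 against D-2, where all 6 passed the adjusted p with log2 fold changes from −0.88 to −0.50.

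At the replication fork, MCM10, which activates the loaded helicase, was at 13.3, 12.4 and 12.2 FPKM in D-2, 2.91, 8.52 and 5.11 in D-3, then 11.4, 11.7 and 11.0 in DP-3, 6.57, 6.92 and 2.35 in IT, 6.61, 6.74 and 6.80 in FIT and 7.65, 8.17 and 8.34 in DP-3 day 1. It was the other G1/S gene upregulated in D-2 against FIT (1.06 ± 0.09, adjusted p = 0.0016). GINS2, a subunit of the helicase's GINS complex, was at 15.2, 14.2 and 13.6 FPKM in D-2, 3.15, 6.96 and 4.63 in D-3, then 11.8, 11.1 and 9.65 in DP-3, 6.83, 7.61 and 2.45 in IT, 9.17, 9.51 and 9.76 in FIT and 7.22, 6.89 and 6.87 in DP-3 day 1. It lay below FIT in D-3, IT and DP-3 day 1 and above FIT in D-2, without overlap. GINS2 had the largest fall of the G1/S genes in D-3 against D-2 (−1.79 ± 0.27, adjusted p = 0.00409) and was called in DP-3 day 1 against D-2 (−1.34 ± 0.07, adjusted p = 2.52e-05). PCNA, the sliding clamp, was at 152, 128 and 119 FPKM in D-2, 39.7, 91.5 and 54.9 in D-3 and 97.4, 101 and 103 in FIT, and it was downregulated in D-3 against D-2 (−1.35 ± 0.29, adjusted p = 0.0124), a call lost without D-3 replicate 3.

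**Figure D4:**
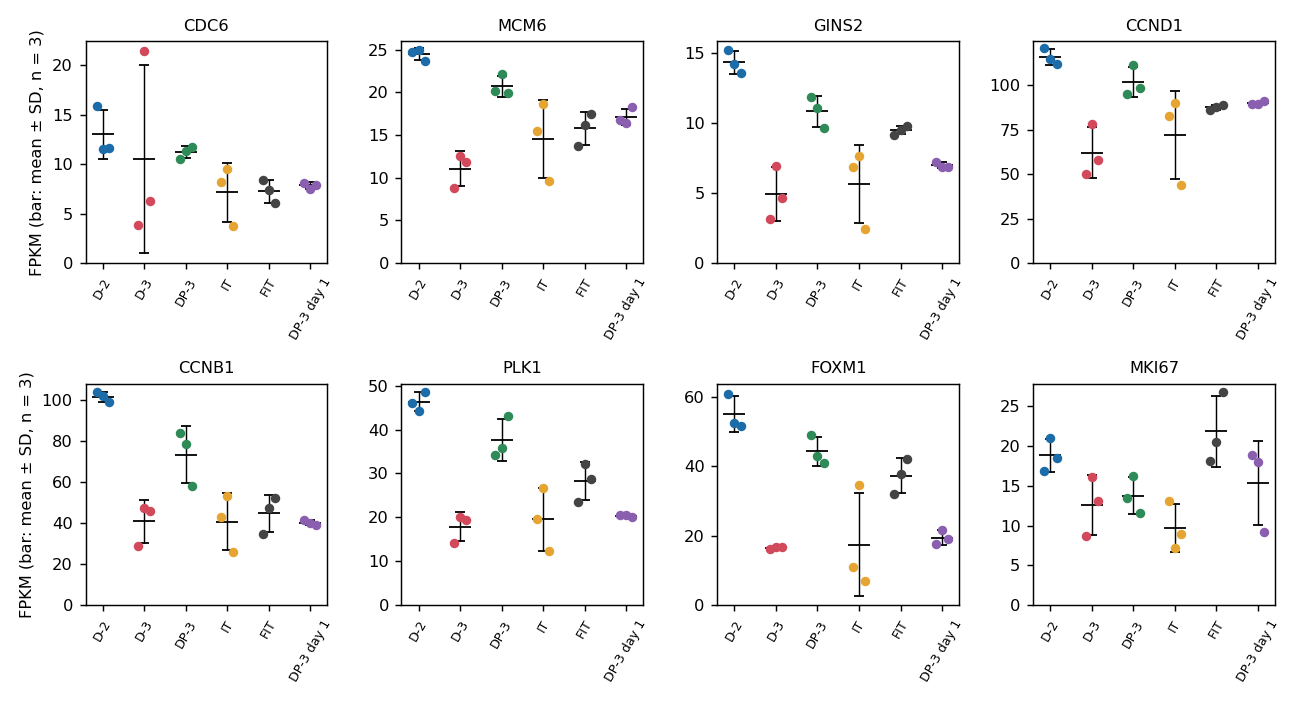
FPKM of 8 members in each library by group (points, 3 per group), with the group mean ± SD as a black bar; each vertical axis starts at 0. FOXM1 is between 16.2 and 16.8 in D-3, and MKI67 is highest in FIT replicate 3, at 26.8, unlike the other 7 genes.

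In the G2/M class, MKI67, which codes for the Ki-67 antigen used in pathology to mark cycling cells, did not follow the rest. It was at 16.9, 21.0 and 18.5 FPKM in D-2, 8.68, 16.1 and 13.1 in D-3, then 13.5, 16.2 and 11.6 in DP-3, 13.1, 7.20 and 8.89 in IT, 18.1, 20.5 and 26.8 in FIT and 18.9, 17.9 and 9.23 in DP-3 day 1. Its mean was highest in FIT, and D-3, DP-3 and IT all lay below FIT without overlap. For D-2 against FIT, MKI67 was the 1 member with a log2 fold change below 0 (−0.06 ± 0.16), and for IT against FIT it gave −1.17 ± 0.25 (adjusted p = 0.195). It was called in IT against D-2 alone among the 15 comparisons (−1.12 ± 0.22, adjusted p = 0.017), in 2 of the 6 fits without 1 library. TOP2A, the topoisomerase that untangles sister chromatids, was at 62.2 to 64.5 FPKM in D-2, 36.9, 38.7 and 67.4 in D-3 and 37.9 to 38.6 in DP-3 day 1, and it was downregulated in DP-3 day 1 against D-2 (−1.04 ± 0.04, adjusted p = 1.75e-05). Without DP-3 day 1 replicate 2 that change fell short of 2-fold.

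Of the 5 genes for the mitotic CDK, its cyclins and its phosphatase, 4 were upregulated in D-2 against FIT, CCNA2, CCNB1, CCNB2 and CDC25C. CDK1, their catalytic partner, gave 0.98 ± 0.16. CCNB1 was at 104, 102 and 98.7 FPKM in D-2, 28.96, 47.5 and 46.1 in D-3, then 83.7, 78.4 and 57.8 in DP-3, 42.8, 53.2 and 26.1 in IT, 34.5, 47.4 and 52.1 in FIT and 41.5, 39.9 and 39.3 in DP-3 day 1. D-2 lay above every other library and DP-3 above all but D-2. CCNB1 was upregulated in D-2 against FIT (1.33 ± 0.17, adjusted p = 0.00282) and in DP-3 against DP-3 day 1 (1.13 ± 0.12, adjusted p = 0.00245), and downregulated against D-2 in D-3 (−1.56 ± 0.19), IT (−1.48 ± 0.25) and DP-3 day 1 (−1.64 ± 0.04). CCNB2 was at 25.1, 25.02 and 24.03 FPKM in DP-3 against 14.7, 13.2 and 13.5 at day 1 (1.11 ± 0.08, adjusted p = 0.0014) and 13.7, 14.6 and 11.7 in IT, where it was downregulated against DP-3 (−1.02 ± 0.15, adjusted p = 0.0298).

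FOXM1 and MYBL2, the transcription factors of the late wave, were both upregulated from day 1 to day 14 in DP-3, MYBL2 not without DP-3 replicate 3 (0.88). FOXM1 was at 60.8, 52.4 and 51.4 FPKM in D-2, 16.2, 16.8 and 16.8 in D-3, then 48.8, 43.0 and 40.9 in DP-3, 11.0, 34.5 and 6.94 in IT, 32.1, 37.6 and 42.0 in FIT and 17.6, 21.7 and 19.1 in DP-3 day 1. D-3 and DP-3 day 1 were low and tight, D-2 was high, and IT spread over 4.97 times. FOXM1 had the largest fall of any member in D-3 against D-2 (−1.98 ± 0.11, adjusted p = 0.000502). It was also downregulated against FIT in D-3 (−1.22 ± 0.15, adjusted p = 0.00538) and likewise in DP-3 day 1 (−1.04 ± 0.14, adjusted p = 0.00701), of which the call in D-3 held whichever library was left out. FOXM1 was upregulated in DP-3 against DP-3 day 1 (1.45 ± 0.11) and against D-3 (1.63 ± 0.14, adjusted p = 0.00314). FOXM1 overlaps RHNO1 and ITFG2 on the other strand, and whether reads were counted by strand is not given. MYBL2 was at 23.7, 66.3 and 46.7 FPKM in D-3 and at 35.5, 34.5 and 36.2 in DP-3 day 1, against 65.5 to 74.4 in D-2. It was downregulated against D-2 in IT (−1.61 ± 0.28, adjusted p = 0.0131) and DP-3 day 1 (−1.31 ± 0.06), and D-3 gave −0.88 ± 0.33 (adjusted p = 0.0735).

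The mitotic kinases and the chromosomal passenger complex held 5 members, and all 5 were downregulated against D-2 in both IT and DP-3 day 1. PLK1, which drives mitotic entry, was at 46.0, 44.3 and 48.6 FPKM in D-2, 14.1, 20.1 and 19.4 in D-3, then 34.3, 35.7 and 43.0 in DP-3, 19.6, 26.7 and 12.4 in IT, 23.6, 32.2 and 28.9 in FIT and 20.6, 20.6 and 20.04 in DP-3 day 1. D-2 and DP-3 lay above FIT, and D-3 and DP-3 day 1 lay below it. PLK1 was downregulated in D-3 against D-2 (−1.62 ± 0.15, adjusted p = 0.00142) and upregulated in DP-3 against D-3 (1.3 ± 0.20, adjusted p = 0.01). With FOXM1 it was 1 of the 2 members whose call in DP-3 against D-3 held whichever library was left out. AURKA, the kinase of the spindle poles, was at 59.4 to 65.4 FPKM in D-2 and 13.9, 24.1 and 27.5 in FIT, and it was upregulated in D-2 against FIT (1.65 ± 0.25, adjusted p = 0.00444) and also in DP-3 (1.04 ± 0.25, adjusted p = 0.0459). The call in DP-3 held in 1 of the 6 fits without 1 library. Of the chromosomal passenger complex, which corrects wrong attachments at the centromere, the kinase AURKB gave −0.95 ± 0.25 in D-3 against D-2, and its partners BIRC5 (−1.39 ± 0.19) and CDCA8 (−1.50 ± 0.20) were downregulated. BIRC5 was at 21.97, 27.6 and 23.2 FPKM in DP-3 and 24.3, 24.5 and 22.7 in D-2, with a log2 fold change near 0.

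The spindle checkpoint genes BUB1 and TTK, kinases that hold anaphase until chromosomes attach, were upregulated in D-2 against FIT (1.15 ± 0.19 and 1.19 ± 0.11), BUB1 not without FIT replicate 1 (0.94). BUB1B, their partner at unattached kinetochores, had 21.6 to 23.4 FPKM in D-2 and 18.5 to 19.4 in DP-3, above the 9.42 to 16.7 of D-3, the 8.32 to 13.9 of IT, the 11.4 to 17.9 of FIT and the 11.7 to 12.3 of DP-3 day 1. All 3 checkpoint genes were downregulated against D-2 in IT and in DP-3 day 1. Among the 5 kinetochore and centromere genes, CENPE, the kinesin that carries chromosomes to the metaphase plate, had the largest log2 fold change of the 5 in D-3, IT and DP-3 day 1 against D-2. It was at 9.43, 10.5 and 10.7 FPKM in D-2, 2.53, 4.78 and 3.84 in D-3, 3.67, 3.49 and 3.99 in DP-3 day 1 and 7.80, 7.28 and 8.45 in DP-3, and it was upregulated in DP-3 against DP-3 day 1 (1.35 ± 0.11, adjusted p = 0.00159). NDC80, a microtubule-binding subunit, was at 26.9, 30.1 and 28.7 FPKM in D-2 and 14.4, 11.8 and 13.6 in DP-3 day 1 (−1.42 ± 0.08). CENPA, the histone of centromeres, was at 13.2, 13.0 and 12.7 FPKM in D-2 and 6.79, 5.92 and 6.81 in DP-3 day 1 (−1.30 ± 0.08).

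Around the anaphase-promoting complex, UBE2C, its ubiquitin-conjugating enzyme, was the most abundant G2/M member per length in D-2. It was at 171, 164 and 170 FPKM in D-2, 72.9, 114 and 111 in D-3, then 136, 125 and 104 in DP-3, 90.8, 94.6 and 50.4 in IT, 70.1, 91.0 and 125 in FIT and 61.0, 63.0 and 65.8 in DP-3 day 1. DP-3 day 1 lay below all other groups but IT, with which it overlapped. UBE2C was downregulated in DP-3 day 1 against D-2 (−1.72 ± 0.05, adjusted p = 1.75e-05) and upregulated in DP-3 against DP-3 day 1 (1.21 ± 0.10). CDC20, the activator of the complex at anaphase, was at 135, 132 and 129 FPKM in D-2, 103, 89.5 and 88.8 in DP-3 and 62.7, 69.0 and 82.0 in FIT (D-2 against FIT 1.04 ± 0.12, adjusted p = 0.00238, and 0.91 and not called without FIT replicate 1). CDCA3, a trigger of mitotic entry, was called only in DP-3 day 1 against D-2 (−1.08 ± 0.14).

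Of the 4 kinesins, KIF20A, which acts in cytokinesis, was at 28.4, 31.8 and 31.0 FPKM in D-2, 9.78, 12.7 and 18.6 in D-3, then 27.5, 25.8 and 25.3 in DP-3, 10.3, 14.4 and 14.2 in IT, 9.81, 12.6 and 17.9 in FIT and 11.8, 14.8 and 10.6 in DP-3 day 1. D-2 and DP-3 lay above all other libraries. KIF20A was upregulated against FIT in D-2 (1.33 ± 0.21) and DP-3 (1.09 ± 0.22, adjusted p = 0.0306) and downregulated in IT against DP-3 (−1.14 ± 0.18, adjusted p = 0.0354). KIF11, KIF23 and KIF2C were each downregulated in IT and DP-3 day 1 against D-2, from −1.34 to −1.01.

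Among the 5 spindle assembly genes, HMMR, a microtubule-associated protein, showed the largest rise of any member in D-2 against FIT. It was at 23.5, 21.3 and 22.2 FPKM in D-2, 6.07, 10.1 and 14.1 in D-3, then 19.0, 18.3 and 17.1 in DP-3, 13.9, 15.1 and 6.25 in IT, 5.67, 6.78 and 9.41 in FIT and 8.52, 9.55 and 9.38 in DP-3 day 1. D-2 and DP-3 did not overlap any other group. HMMR was upregulated against FIT in D-2 (1.77 ± 0.19, adjusted p = 0.00205) and in DP-3 (1.44 ± 0.20, adjusted p = 0.0133). TPX2, the activator of AURKA, was at 117 to 121 FPKM in D-2, 99.2 to 104 in DP-3, 73.7 to 76.2 in DP-3 day 1 and 57.7 to 78.9 in FIT, and it was called in IT against D-2 alone among the 15 comparisons (−1.20 ± 0.23, adjusted p = 0.016), in 2 of the 6 fits without 1 library. Of the cytokinesis genes, ANLN, the actin-binding anillin, was at 46.9, 50.7 and 52.1 FPKM in DP-3 and 29.1, 29.7 and 31.0 in DP-3 day 1 (1.01 ± 0.09, adjusted p = 0.00183), a call held in 3 of the 6 fits without 1 library. PRC1, which bundles the midzone, gave −1.49 ± 0.18 in IT against D-2 (adjusted p = 0.00787), and ECT2, the activator of RhoA at the furrow, −0.55 ± 0.19 (adjusted p = 0.0707).

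**Figure D5:**
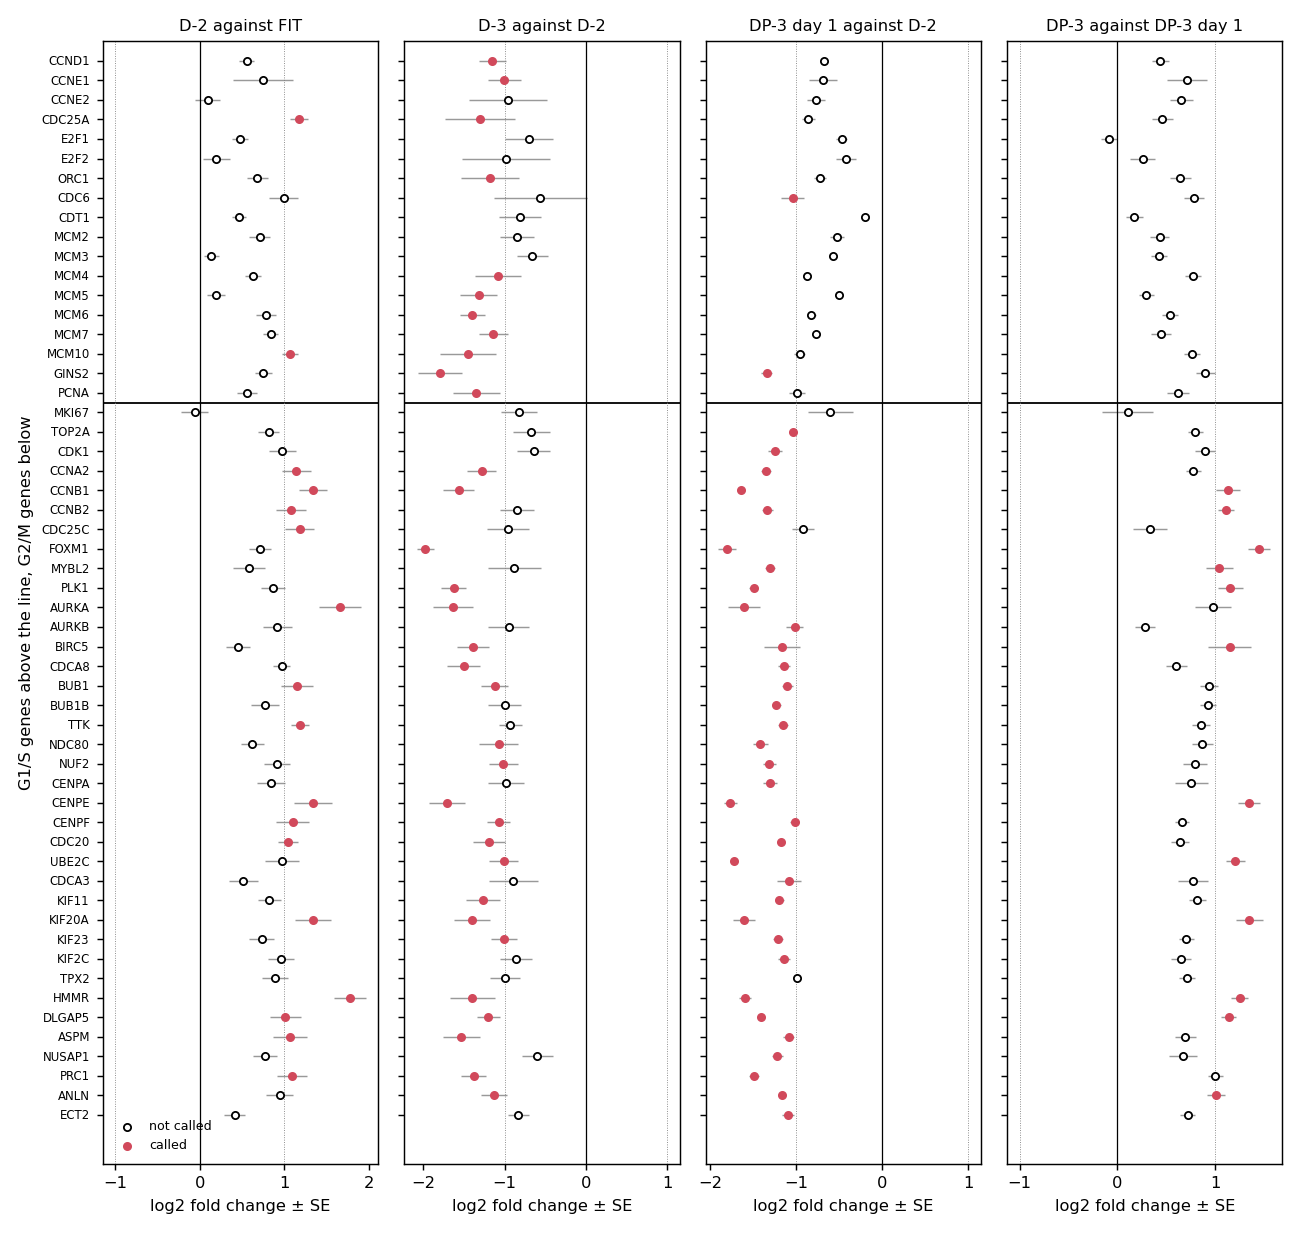
Log2 fold change ± SE of each of the 55 members in 4 comparisons (one panel each), called members filled red and others open, with dotted lines at a fold change of 2. In DP-3 day 1 against D-2 the G2/M genes lie near or beyond −1 except MKI67, while most G1/S genes lie between −1 and 0.

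Genes of the same pathways outside the 55 were counted from lists chosen in the same way. Of 30 further G1/S and replication genes, 14 were downregulated in D-3, 7 in IT and 6 in DP-3 day 1 against D-2, and 3 were upregulated in D-2 against FIT, RRM2 and TIPIN by most (1.27 ± 0.27 and 1.11 ± 0.14). Of 38 further G2/M genes the counts were 18, 20, 13 and 7. Of all genes, 3.95%, 2.81% and 4.13% were downregulated in D-3, IT and DP-3 day 1 against D-2, and 3.83% upregulated in D-2 against FIT. With 1 library left out, the further G1/S counts ranged from 2 to 16, 0 to 7, 4 to 6 and 1 to 3, and the further G2/M counts from 9 to 24, 1 to 22, 11 to 17 and 3 to 10. In these fits 11.6% to 19%, 2.68% to 11.6%, 12.5% to 17.4% and 9.26% to 16.2% of all genes were called in either direction. In D-3 against D-2 the median log2 fold change was −0.95 and −0.99 for these lists, beside 0.11 over all genes. Among other CDKs, cyclins and E2F partners, 22 of 23 were tested, of which 7, 2 and 4 were downregulated against D-2, and 1 was upregulated in IT. With 1 library left out, 3 to 9, 0 to 6 and 4 were downregulated. E2F7, a repressor of E2F targets, was upregulated against FIT in D-2 (1.15 ± 0.18), D-3 (1.35 ± 0.19), DP-3 (1.24 ± 0.20) and DP-3 day 1 (1.36 ± 0.17, adjusted p = 0.00607). The E2F7 calls in D-3 and in DP-3 were each lost without at least 1 library.

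Of 8 CDK inhibitors, 5 were tested. CDKN1C, CDKN2A and CDKN2B did not pass the filter on low values in any comparison. CDKN2A and CDKN2B averaged 0.0103 and 0.0372 FPKM in DP-3 day 1 and were at 0 in every library of the other groups. CDKN1A, which codes for p21, an inhibitor of CDK2, was at 5.82, 5.39 and 5.61 FPKM in D-2, 18.4, 25.4 and 20.3 in D-3, then 10.2, 11.1 and 7.65 in DP-3, 20.5, 16.6 and 24.5 in IT, 25.8, 9.80 and 7.67 in FIT and 14.4, 14.6 and 16.3 in DP-3 day 1. Its order ran against that of the members, with D-2 lowest and D-3 and IT highest, and D-3, IT and DP-3 day 1 did not overlap D-2 or DP-3. CDKN1A was upregulated against D-2 in D-3 (1.68 ± 0.15, adjusted p = 0.00134), IT (1.70 ± 0.16, adjusted p = 0.00611) and DP-3 day 1 (1.12 ± 0.07, adjusted p = 7.11e-05). FIT replicate 1, the lowest FIT library for 36 of 37 G2/M genes, was also the FIT library with the most CDKN1A. CDKN3, a phosphatase of CDKs that is itself made in G2/M, went with the members instead, upregulated in DP-3 against DP-3 day 1 (1.52 ± 0.11, adjusted p = 0.00141) and downregulated against D-2 in IT (−1.02 ± 0.26) and DP-3 day 1 (−1.76 ± 0.09). CDKN2D was downregulated in DP-3 against FIT (−1.60, adjusted p = 0.0416) and against D-3 (−1.62, adjusted p = 0.0307), and CDKN1B and CDKN2C were called in none of the 15 comparisons.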

How the data were processed

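Poly(A) RNA was sequenced in 18 libraries, and per the labels the reads were trimmed with cutadapt 1.9, aligned with HISAT2 2.0.4 and assembled with StringTie 1.3.4d. The genome build and the treatment of mouse reads are not given in the sources used here. The authors computed the deposited FPKM values. The deposited estimated counts are whole numbers; how they were made is not given. Gene positions overlapped the same genes of GENCODE 29 for 55 of 55 members, and 23 members overlap a gene on the other strand. The members and lists were chosen with earlier results of these data known.

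Here, edgeR 4.0.16 (TMM, estimateDisp, glmQLFit, glmQLFTest; R 4.3.3) was fitted to the estimated counts of each pair of groups on its own 6 libraries, over genes that reached 0.1 FPKM in 3 or more of them. p-values were adjusted by Benjamini-Hochberg over all genes tested. Members were named by phase and role. All 55 could be named; values in every library were given for key members of each role and for those with the largest called changes, and MCM6 and the CDK inhibitors were given so after their values were seen. The alternatives were DESeq2 1.42.0, median-of-ratios scaling, no filter, 1 fit of 18 libraries, the replicate number as a block, any fold change, limma 3.58.1 on log2(FPKM + 0.1) and leaving out each library. No pairing by replicate number was seen: in no comparison did every same-numbered pair deviate together with a correlation above 0.1. With 3 libraries a group this does not exclude pairing, as of IT and FIT by tumour. No libraries were duplicates, and 0 columns of values were left unused. Total estimated counts were 23721666 to 79082786 per library.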

Additional observations from a re-analysis of the deposited data

Results flagged for a closer look

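In 25 combinations of a member and a pair of cultures, the changes from FIT pointed opposite ways: FPKM of all 3 libraries lay above all FIT libraries in 1 culture and below them in another, and the direct comparison of the cultures was called by edgeR. The changes from FIT themselves were mostly not called, and no explanation was tested. How many of all genes met the same rule was not counted, so the 25 cannot be set against a background. For D-3 against D-2 the log2 fold changes were −1.15 for CCND1, −1.4 for MCM6, −1.79 for GINS2, −1.35 for PCNA, −1.98 for FOXM1, −1.62 for PLK1, −1.39 for BIRC5 and −1.5 for CDCA8. For IT against D-2 they were −1.39 for ORC1, −1.51 for GINS2, −1.61 for MYBL2, −1.26 for BIRC5 and −1.34 for KIF23. For DP-3 day 1 against D-2 they were −1.34 for GINS2, −1.8 for FOXM1, −1.31 for MYBL2, −1.49 for PLK1, −1.42 for NDC80, −1.3 for CENPA, −1.72 for UBE2C and −1.1 for ECT2. DP-3 against D-3 gave 1.12 for MCM6, 1.3 for PLK1 and 1.38 for BIRC5, and DP-3 against DP-3 day 1 gave 1.16 for PLK1.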

How the results depend on the processing

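Of the 159 calls of members over all comparisons, none changed sign under any alternative. DESeq2 kept 158, median-of-ratios scaling 158, no filter 158, 1 fit of all libraries 152, the replicate block 147 and limma on log2(FPKM + 0.1) 72. On the FPKM scale the median of all genes moved by up to 0.25 log2 units (DP-3 day 1 against D-2), and the share of higher calls among all genes called went from 23.9% to 6.67% for DP-3 against DP-3 day 1 and from 78.6% to 91.6% for D-3 against D-2. The members called stayed on 1 side in each comparison.

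Counts of members called by limma were 9 for D-2 against FIT, 1 for D-3 against FIT, 1 for DP-3 against FIT, 0 for DP-3 day 1 against FIT, 3 for DP-3 against DP-3 day 1, 18 for D-3 against D-2, 21 for IT against D-2, 5 for DP-3 against D-3, 0 for IT against DP-3 and 14 for DP-3 day 1 against D-2. Over all genes limma called, in the same order and in either direction, 15.6%, 7.17%, 4.97%, 5.56%, 10.9%, 21%, 14.4%, 11.8%, 3.89% and 20%. At any fold change, the edgeR adjusted p was passed by 47 members for D-2, 13 for DP-3 and 8 for DP-3 day 1 against FIT. It was passed by 49 for DP-3 against DP-3 day 1, 8 for DP-3 against D-2 and 26 for DP-3 against D-3. Of all genes, in the same order and in either direction, 30.9%, 8.4%, 10.1%, 22.1%, 2.36% and 14.7% passed it. For IT against FIT, DESeq2 and the fit of all libraries each called 1, against 3.12% and 2.61% of all genes. For IT against DP-3, DESeq2 called 13, no filter 5 and the fit of all libraries 11, against 8.97%, 0.961% and 7.84%, and for DP-3 day 1 against FIT the fit of all libraries called 0. The replicate block gave 0 for DP-3 against FIT and 0 for IT against DP-3, each 3 without it, and 37 in place of 33 for D-3 against D-2. Whether the numbers pair the libraries is not known.

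With 1 library left out at a time, the counts ranged from 10 to 24 for D-2 against FIT, 1 to 7 for D-3 against FIT, 0 to 7 for DP-3 against FIT, 0 to 1 for DP-3 day 1 against FIT, 10 to 14 for DP-3 against DP-3 day 1, 19 to 44 for D-3 against D-2, 6 to 39 for IT against D-2, 4 to 23 for DP-3 against D-3, 0 to 3 for IT against DP-3, 32 to 36 for DP-3 day 1 against D-2 and 0 to 5 for DP-3 day 1 against D-3. Shares of all genes called, in the same order and in either direction, were 9.26% to 16.2%, 1.18% to 7.12% and 0.464% to 7.52%. Then came 1.86% to 8.07%, 3.85% to 7.82%, 11.6% to 19% and 2.68% to 11.6%. The last were 1.71% to 11.3%, 0% to 1.58%, 12.5% to 17.4% and 0.16% to 5.99%. The calls that held in every such fit numbered 9 of 17 (D-2 against FIT), 17 of 33 (D-3 against D-2), 6 of 38 (IT against D-2), 2 of 14 (DP-3 against D-3), 10 of 12 (DP-3 against DP-3 day 1) and 30 of 36 (DP-3 day 1 against D-2). The cause of these differences was not tested. With 3 libraries a group, a missed threshold does not show that groups are alike.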
